A study of Mus musculus with 12 samples.

Results

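The genes described here are 129 mouse genes of the enzyme families of xenobiotic metabolism, out of 19938 genes measured in biopsies of colon tumors. They were taken by name as every gene whose symbol begins as a cytochrome P450 (Cyp; the sterol demethylase Cyp51 was left out), a cytosolic glutathione transferase (Gst), a UDP-glucuronosyltransferase of families 1 or 2 (Ugt) or a sulfotransferase (Sult), and whose probe set carried that symbol alone. Where a gene had several probe sets, the one with the highest mean over the arrays was kept, which applied to Gstm3 only. The set holds 45 Cyp2, 16 Cyp4, 6 Cyp3 and 3 Cyp1 genes, 16 P450s of other families, 19 glutathione transferases, 8 Ugt2 genes and 16 sulfotransferases. The name pattern is wider than drug metabolism, since the P450s of other families act mainly on sterols, bile acids, steroids, retinoids and vitamin D. Cyp2d13, Cyp2d37-ps and Cyp4f41-ps are annotated as transcribed pseudogenes but are counted among the 129 enzymes throughout. Another 17 probe sets carried several symbols and were not used, among them the single one for the Ugt1a cluster, so no Ugt1 gene is included.

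Xenobiotic metabolism makes foreign lipophilic compounds easier to excrete. P450s add or expose an oxygen group (phase I), and glutathione transferases, glucuronosyltransferases and sulfotransferases then attach glutathione, glucuronic acid or sulfate (phase II), after which efflux transporters export the product. In the intestine much of this machinery sits in the mature epithelial cells that face the lumen, and several of its genes are induced through the receptors AHR and PXR or through the factor NRF2.

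The tumors grew in the distal colon of F1 hybrids of SWR females and C57BL/6 males that all carried Apc Min/+, a germline mutation of the Wnt pathway suppressor Apc, and all mice had drunk 4% dextran sodium sulfate, which injures the colonic epithelium, in 2 rounds around weaning. There were no untreated, Apc wild-type or normal colon samples. One tumor of each of 6 mice was biopsied by colonoscopy over its life, and the last and first biopsies were hybridised to Affymetrix arrays, 12 arrays in all. At the end of life 3 tumors were intramucosal carcinomas (mice 2201, 3407 and 3413) and 3 were adenomas (mice 1755, 1803 and 1805). Mice 1755 and 3407 were female and the others male, and sex was not a term in the fits. Late biopsies were taken at an age of 227 ± 35.2 days from the carcinomas and 333 ± 86.4 days from the adenomas, and early biopsies at 99.7 ± 15.5 days from the tumors that ended as carcinomas and 89.0 ± 4.36 days from those that ended as adenomas (SD, n = 3 each). Age at the late biopsy and the time between biopsies thus differed on average with pathology, and their part in the differences was not tested. The pathology of the early biopsies is labelled unknown, so an early group is named here after the final pathology of the same tumor.

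Values are deposited log2 intensities, and differences are late minus early or carcinoma minus adenoma on that log2 scale. A level is not compared between probe sets, because probe sets differ in how strongly they respond. The 12 arrays had medians of 7.62 to 7.80, and the mean of 7 epithelial markers lay between 12.7 and 13.2. The arrays fell into 2 groups that follow the sample numbers: the early arrays of mice 1755, 1803, 1805 and 2201 (numbers 155 to 255) stood apart from the other 8 arrays (numbers 319 to 379), with means of 7.08 to 7.19 against 6.80 to 6.94 over the 50 lowest-numbered probe sets. Both biopsies lay in one array group for mice 3407 and 3413 only. In the adenoma tumors, array group and time point therefore cannot be told apart pair by pair. A term for the array group, where fitted by pathology, rests on carcinoma mouse 2201 against mice 3407 and 3413. Where it is fitted over all tumors, the change given with it is that of mice 3407 and 3413. The number of arrays limits the precision throughout.

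Of the 129 enzymes, 59 had a mean above the 25th percentile of all genes, which is 6.69. They included all 7 mu class (Gstm) and both alpha class (Gsta) glutathione transferases, but 1 of the 6 Cyp3 genes, 2 of the 8 Ugt2 genes and 15 of the 45 Cyp2 genes. The one Cyp3 gene was Cyp3a13, the Cyp3a P450 typical of mouse intestine, while Cyp3a11, the main Cyp3a P450 of mouse liver, lay between 4.01 and 4.49 on every array. Over the 12 arrays the range of an enzyme had a median of 0.64, so most of the set was flat. The widest ranges were those of Sult1b1 at 5.74 and Sult1d1 at 5.41.

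The largest differences in the set separated tumors by final pathology. Sult1b1 and Sult1d1, cytosolic sulfotransferases that sulfate phenols with thyroid hormones and catecholamines among their substrates, were lower in the carcinoma tumors than in the adenoma tumors, at the late and already at the early biopsy. They lie next to each other on chromosome 5, beside Sult1e1 and the Ugt2 cluster. Sult1b1 was at 7.16, 5.50 and 7.22 in late carcinomas (mice 2201, 3407 and 3413), against 9.86, 7.91 and 11.24 in late adenomas (mice 1755, 1803 and 1805). Every late carcinoma lay below every late adenoma. In the early biopsies it was at 6.59, 7.68 and 7.49 in tumors that became carcinomas, against 9.90, 9.06 and 10.88 in those that stayed adenomas. All 6 arrays of carcinoma tumors thus lay below all 6 arrays of adenoma tumors, which held for 2 of the 129 enzymes (1.55%) and for 0.943% of all genes. The opposite order was found for no enzyme and for 1.21% of all genes. The difference was −3.04 (SE 0.769) late and −2.69 (SE 0.769) early, with adjusted p = 0.401 and 0.288 (limma, Benjamini-Hochberg over all genes), so neither passed the threshold of 0.05.

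Sult1d1 was at 7.22, 6.24 and 6.28 in late carcinomas, against 9.06, 6.82 and 10.27 in late adenomas. Here the late adenoma of mouse 1803 lay among the carcinomas. In early biopsies Sult1d1 was at 6.32, 6.88 and 6.95 in carcinoma tumors, against 9.78, 8.84 and 11.65 in adenoma tumors, with no overlap. Its differences were −2.14 (SE 0.775) late and −3.38 (SE 0.775) early (limma adjusted p = 0.406 and 0.222). Without mouse 1805 the late difference was −1.36.

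The other enzyme with no overlap over all arrays was Cyp2s1, a P450 of surface epithelia outside the liver. It was at 8.36, 7.24 and 7.89 in late carcinomas, against 9.23, 8.56 and 10.81 in late adenomas. In early biopsies it was at 8.35, 7.62 and 8.19 in carcinoma tumors, against 9.38, 9.10 and 10.87 in adenoma tumors. The differences were −1.70 late and −1.73 early (SE 0.524 each; limma adjusted p = 0.401 and 0.291), and without mouse 1805 the late one was −1.06. Between the biopsies of a tumor Cyp2s1 was lower late in 5 of 6 mice, with a change of −0.24 (SE 0.0806; unadjusted p = 0.0205, adjusted p = 0.275).

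The sequences just upstream of these 3 genes are shown because the genes share a low level in the carcinoma tumors, and that of Cyp2w1, described further on, because its level was higher late in all tumors. Each is the 250 bases before a RefSeq transcription start in GRCm38.p6, the C57BL/6J reference, written 5′ to 3′ on the strand of the gene, and the SWR allele is not shown. Capitals mark the letters GCGTG or their reverse complement CACGC, the core recognised by AHR with its partner ARNT. Sult1b1 has a pair of annotated starts, at chr5:87536223-87536472 and chr5:87538196-87538445 (minus strand), Sult1d1 lies at chr5:87569007-87569256 (minus strand), Cyp2s1 at chr7:25816526-25816775 (minus strand) and Cyp2w1 at chr5:139352366-139352615 (plus strand).
Sult1b1, first start: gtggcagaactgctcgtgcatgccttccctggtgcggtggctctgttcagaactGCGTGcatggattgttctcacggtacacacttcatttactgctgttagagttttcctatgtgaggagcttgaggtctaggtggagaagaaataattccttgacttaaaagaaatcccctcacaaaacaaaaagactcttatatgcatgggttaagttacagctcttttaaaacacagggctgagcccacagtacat
Sult1b1, second start: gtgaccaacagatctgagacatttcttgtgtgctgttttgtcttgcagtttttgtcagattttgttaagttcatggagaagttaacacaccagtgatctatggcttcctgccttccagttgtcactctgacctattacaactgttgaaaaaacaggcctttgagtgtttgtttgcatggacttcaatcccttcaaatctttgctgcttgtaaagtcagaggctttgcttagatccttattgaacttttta
Sult1d1: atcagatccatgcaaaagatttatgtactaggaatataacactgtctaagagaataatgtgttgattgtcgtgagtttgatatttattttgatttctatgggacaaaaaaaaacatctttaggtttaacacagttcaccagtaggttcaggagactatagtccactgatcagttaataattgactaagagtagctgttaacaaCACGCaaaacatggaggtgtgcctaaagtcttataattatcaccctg
Cyp2s1: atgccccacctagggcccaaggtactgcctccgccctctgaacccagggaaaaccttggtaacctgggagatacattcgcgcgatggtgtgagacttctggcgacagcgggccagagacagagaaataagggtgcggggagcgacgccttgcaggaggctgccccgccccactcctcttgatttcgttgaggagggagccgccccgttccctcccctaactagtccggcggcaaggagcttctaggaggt
Cyp2w1: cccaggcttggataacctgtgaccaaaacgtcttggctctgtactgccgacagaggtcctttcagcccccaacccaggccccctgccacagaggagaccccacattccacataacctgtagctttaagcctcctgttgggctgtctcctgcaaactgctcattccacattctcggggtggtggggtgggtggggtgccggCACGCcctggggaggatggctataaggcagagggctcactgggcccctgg
The core was present once in 1 of the Sult1b1 windows, in Sult1d1 and in Cyp2w1, and not in the window of Cyp2s1. Of the 129 enzymes 103 had an entry in the RefSeq promoter table, with 122 starts, and 18.9% of these windows held the core on either strand, against 28.2% of all 32851 windows in the table. The letters TGACNNNGC, the core of the antioxidant response element bound by NRF2, were in none of the windows shown, in 4.92% of the enzymes' windows and in 10.2% of all windows.

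**Figure D1:**
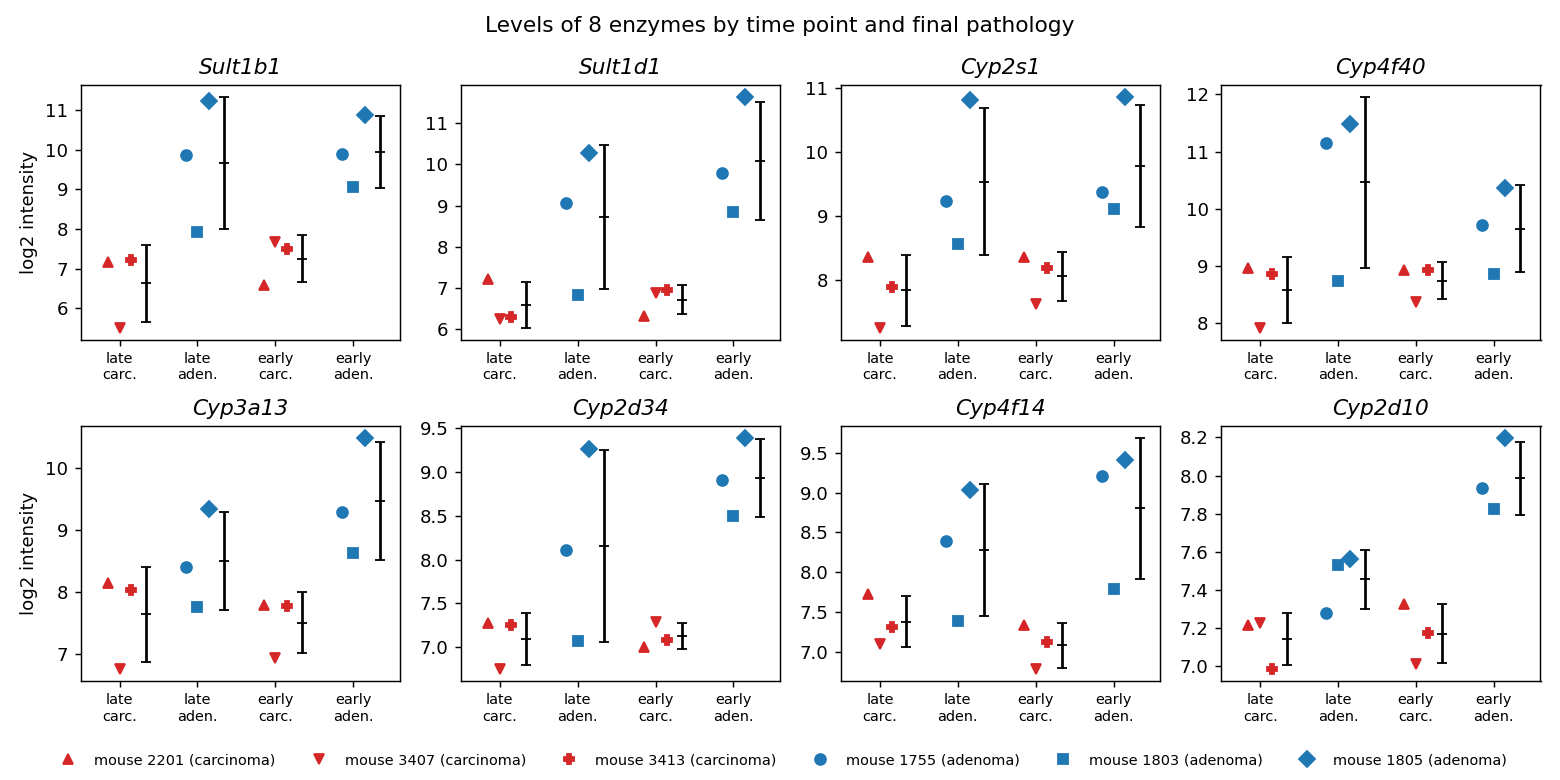
Log2 intensity (y axis) of 8 enzymes in the late and early biopsies of carcinoma tumors (red) and adenoma tumors (blue), 1 symbol per mouse, with the mean ± SD of each group (n = 3) as a bar beside it. For Sult1b1 and Cyp2s1 all red points lie below all blue points, and for Cyp4f14 and Cyp2d34 the late adenoma of mouse 1803 lies at the level of the carcinomas.

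Among the late biopsies 15 enzymes had every carcinoma below every adenoma (11.6%, against 6.12% of all genes), and 4 had every carcinoma above (3.10%, against 8.77%). No enzyme and no gene passed the adjusted threshold in limma (0.0% of all genes), while 14 enzymes were lower and 1 higher at an unadjusted p under 0.05 (10.9% and 0.775%, against 5.0% and 6.74% of all genes). Besides the sulfotransferases and Cyp2s1, the lower ones included the fatty acid hydroxylase Cyp4f40, the arachidonic acid epoxygenase Cyp2j6, the retinoic acid hydroxylase Cyp26b1 and the omega class transferase Gsto1. The single enzyme that was higher was Gstm5.

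Cyp4f40 was at 8.97, 7.91 and 8.86 in late carcinomas, against 11.16, 8.73 and 11.49 in late adenomas, a difference of −1.88 (SE 0.597; limma adjusted p = 0.401). The adenoma of mouse 1803 again lay with the carcinomas. Gsto1, which also reduces dehydroascorbate, was at 11.36, 10.79 and 11.18 in late carcinomas, against 11.86, 11.38 and 12.18 in late adenomas, a narrow separation with a difference of −0.70 (SE 0.221; adjusted p = 0.401). Gstm5 lay the other way round, at 10.70, 11.01 and 10.96 in late carcinomas, against 10.26, 10.34 and 9.29 in late adenomas, a difference of 0.93 (SE 0.245; adjusted p = 0.401), or 0.59 without mouse 1805.

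Gstm5 showed no such gap in the early biopsies, where it was at 10.96, 10.85 and 10.72 in carcinoma tumors and 10.89, 10.63 and 10.73 in adenoma tumors. Cyp21a1, the steroid 21-hydroxylase, was at 8.11, 6.64 and 7.51 in late carcinomas, against 7.93, 8.35 and 10.40 in late adenomas, and its difference of −1.48 rested largely on mouse 1805. Without that mouse it was −0.72.

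Mouse 1803 decided how many enzymes were called between the pathologies. With its 2 arrays left out, 395 of the 19938 genes and 7 of the 129 enzymes passed the adjusted threshold among late biopsies, all 7 lower in carcinomas. These were Sult1b1 at −3.92 (limma adjusted p = 0.0269), Sult1d1 at −3.08, Cyp4f40 at −2.74, Cyp2c65 at −2.47, Cyp2d34 at −1.59, Gstk1 at −1.50 and Cyp4f14 at −1.34. Among early biopsies 67 of the 19938 genes and 5 of the 129 enzymes passed without this mouse. The 5 were Sult1d1 at −4.00, Cyp2c65 at −2.61, Cyp4f14 at −2.23, Cyp2d34 at −2.02 and Cyp2d10 at −0.90. The directions of the 395 and 67 genes were not counted. No enzyme passed when any other mouse was left out.

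The early biopsies held the same kind of difference over more P450s. Every carcinoma tumor lay below every adenoma tumor for 19 enzymes (14.7%, against 7.31% of all genes), and above for 9 (6.98%, against 10.7%). In limma 20 enzymes were lower and 6 higher at an unadjusted p under 0.05 (15.5% and 4.65%, against 4.9% and 7.06% of all genes), and none passed after adjustment (0.0% of all genes). Of the 45 Cyp2 genes 37 were lower in the carcinoma tumors (82.2%, against 39.9% of all genes), 11 of them at an unadjusted p under 0.05. Their median difference was −0.13 beside 0.04 for all genes, and 15 of the 45 had a mean above the 25th percentile of all genes. For the 6 Sult1 genes the median was −1.23, with 5 lower. The P450s of other families leaned the other way, with 13 of 16 higher (18.8% lower, against 39.9% of all genes) and a median of 0.15. Of these 16, 8 had a mean above the 25th percentile of all genes.

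The Cyp2d genes, which form a cluster on chromosome 15 and hydroxylate many amine drugs, and the Cyp2c genes, which act on drugs and arachidonic acid, made up much of the Cyp2 group. Cyp2d10 was at 7.32, 7.01 and 7.17 in early carcinoma tumors, against 7.93, 7.82 and 8.20 in early adenoma tumors. The groups did not overlap, and the difference of −0.82 (SE 0.131) had the smallest p of the set in this comparison, 7.58e-05 unadjusted and 0.148 adjusted (limma). Cyp2d34 was at 7.01, 7.29 and 7.08 in early carcinoma tumors, against 8.91, 8.49 and 9.39 in early adenoma tumors, a difference of −1.80 (SE 0.420; adjusted p = 0.226). Close paralogs in these clusters can hybridise to each other's probes, so the Cyp2d values may not be independent of one another.

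Cyp2c65 and Cyp2c55, P450s of the mouse gut that oxidise arachidonic acid, had early differences of −2.05 (SE 0.686) and −1.67 (SE 0.533). Cyp2c65 was at 4.88, 4.67 and 4.36 in early carcinoma tumors, against 7.90, 5.56 and 6.60 in early adenoma tumors. Cyp3a13 was at 7.79, 6.94 and 7.78 in early carcinoma tumors, against 9.29, 8.63 and 10.50 in early adenoma tumors, a difference of −1.97 (SE 0.492; limma adjusted p = 0.251). Neither of these overlapped between the groups. Cyp4f14, a leukotriene and fatty acid hydroxylase, was at 7.34, 6.78 and 7.12 in early carcinoma tumors, against 9.21, 7.79 and 9.41 in early adenoma tumors, a difference of −1.72 (SE 0.411; adjusted p = 0.235).

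The early array of carcinoma mouse 2201 shares its array group with the 3 early adenoma arrays, so a term for the array group could be fitted. With it the early difference was −4.00 (SE 1.07) for Sult1d1, −3.55 (SE 1.04) for Sult1b1, −1.85 (SE 0.693) for Cyp3a13 and −0.69 (SE 0.180) for Cyp2d10. None passed (limma adjusted p = 0.433 for Sult1d1, Sult1b1 and Cyp2d10 and 0.473 for Cyp3a13).

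A list of 12 surface colonocyte markers, absorptive genes such as Slc26a3, Aqp8 and Car4, moved with the pathology in the same way. Its mean was 8.73, 7.67 and 8.40 in late carcinomas, against 10.10, 8.42 and 10.55 in late adenomas. In early biopsies it was 8.11, 8.42 and 8.45 in carcinoma tumors, against 10.18, 9.88 and 11.09 in adenoma tumors. Of its 12 genes 11 were lower in late carcinomas (median −1.29) and all 12 in early carcinoma tumors (median −2.00), and the late adenoma of mouse 1803 was again at the carcinoma level. A list of 6 measured goblet cell markers was lower too, with all 6 below at both times and medians of −1.12 late and −1.67 early. The 7 epithelial markers leaned the same way by less, with 7 lower late (median −0.16) and 6 lower early (median −0.17). Of all genes, 45.8% were lower in carcinoma tumors late and 39.9% early.

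Markers of some other cells went the opposite way in the early biopsies, but not those of all. Of 4 plasma cell markers 3 were lower in early carcinoma tumors (median −0.28), and mast cell markers split 3 and 3 (median 0.04). Of 6 smooth muscle and 6 macrophage markers, 4 each were higher (medians 0.10 and 0.33). All 7 endothelial markers were higher in early carcinoma tumors (median 0.88, 5 at an unadjusted p under 0.05), with list means of 9.09 to 10.37 in carcinoma tumors against 8.54 to 9.05 in adenoma tumors. All 7 fibroblast markers were higher (median 0.87, 3 at that p), with means of 10.10 to 11.71 against 9.35 to 10.52, and all 6 neutrophil markers were higher (median 1.25, 4 at that p), with means of 7.80 to 8.75 against 6.74 to 7.50. In late biopsies the medians were −0.03 for endothelium, −0.04 for fibroblasts and −0.61 for neutrophils. All 5 tumor stem cell and Wnt target genes were higher in late carcinomas (median 0.98, 1 at that p). Their mean was 11.58, 11.61 and 11.62 in late carcinomas (mice 2201, 3407 and 3413). It was 11.06, 11.43 and 9.49 in late adenomas (mice 1755, 1803 and 1805), so the gap was widest for mouse 1805 and narrow for mouse 1803. In bulk biopsies, fewer cells of a type and less RNA per cell cannot be told apart, and the part of all these cells in the enzyme differences was not tested.

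**Figure D2:**
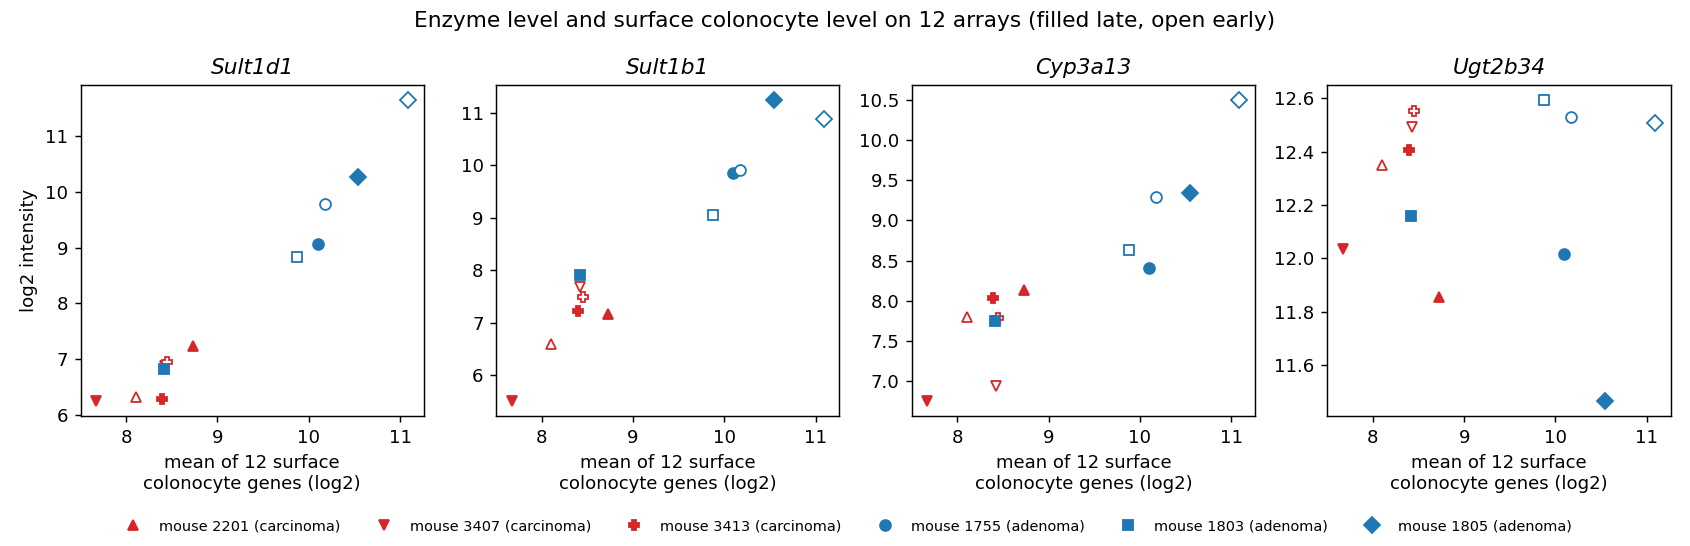
Log2 intensity of 4 enzymes (y axes) against the mean log2 intensity of 12 surface colonocyte markers (x axes) on the 12 arrays, carcinoma tumors in red and adenoma tumors in blue, with late biopsies filled and early biopsies open. Sult1d1, Sult1b1 and Cyp3a13 are highest on the arrays where the markers are highest, those of mouse 1805, while Ugt2b34 is lowest on the late array of that mouse, at 11.46.

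With time, the set as a whole moved little. Between late and early biopsies of all 6 tumors no gene passed the adjusted threshold in limma (0.0%), and 19 enzymes were at an unadjusted p under 0.05 (14.7%, against 14.7% of all genes), 16 of them lower and 3 higher (12.4% and 2.33%, against 9.06% and 5.68% of all genes). Of the 129 enzymes 86 were lower late (66.7%, against 57.9% of all genes), with a median of −0.06 beside −0.02. Enzymes lower in all 6 mice numbered 8 (6.20%, against 5.18% of all genes), among them Ugt2b34, Gstm1 and Gstm4, and the single enzyme higher in all 6 was Cyp2w1 (0.775%, against 2.59%).

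Cyp2w1 is a P450 known in humans from fetal colon and from colorectal tumors. It was at 9.23, 8.71 and 8.67 in late carcinomas, against 8.34, 8.23 and 8.39 in the early biopsies of the same mice. In the adenoma tumors it was at 9.08, 8.94 and 9.53 late, against 8.47, 8.36 and 8.36 early. Every late array lay above every early array, whatever the pathology. The change was 0.67 over all tumors (SE 0.112; unadjusted p = 0.000417, limma adjusted p = 0.206), 0.55 in carcinoma tumors and 0.78 in adenoma tumors. In mice 3407 and 3413, whose biopsies share an array group, it was 0.47 and 0.29, and with a term for the array group the change over all tumors was 0.38 (SE 0.156).

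Ugt2b34, a glucuronosyltransferase, was lower late. It was at 11.86, 12.03 and 12.40 in late carcinomas, against 12.35, 12.49 and 12.55 in the early biopsies of those mice, and at 12.02, 12.16 and 11.46 in late adenomas, against 12.53, 12.59 and 12.51 early. It was lower late in each of the 6 mice, although the late array of mouse 3413 overlapped the early range. The change was −0.52 (SE 0.105; unadjusted p = 0.00140, limma adjusted p = 0.207), −0.37 in carcinoma tumors and −0.66 in adenoma tumors. It was −0.46 and −0.15 in mice 3407 and 3413, and −0.30 (SE 0.166) with a term for the array group. Ugt2b35 was lower in 4 of 6 mice and by most in mouse 1805, where it was at 6.29 late against 8.49 early.

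All 7 Gstm genes, which conjugate glutathione to epoxides and other electrophiles and lie together on chromosome 3, were measured above the 25th percentile. Of these, 6 were lower late (85.7%, against 57.9% of all genes), with a median of −0.30. Gstm7 was at 9.64, 9.65 and 10.40 in late carcinomas, against 10.28, 10.78 and 10.35 early, and at 8.64, 10.16 and 8.68 in late adenomas, against 9.83, 10.37 and 10.68 early. It was lower in 5 of 6 mice, by −0.85 on average (SE 0.251; limma adjusted p = 0.255), or −0.54 (SE 0.441) with a term for the array group. Gstm1 and Gstm4 were lower in all 6 mice, with mean changes of −0.39 (SE 0.151) and −0.26 (SE 0.0918). Without mouse 1805 the change of Gstm1 was −0.23, and with a term for the array group that of Gstm4 was −0.11 (SE 0.154). The family was uneven between mice: its mean change was −1.09 in mouse 1805 and −0.49 in mouse 3407, but between −0.26 and −0.01 in the other 4.

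The late array of mouse 1805 also stood apart in other lists. Its mean over 5 tumor stem cell and Wnt target genes was 9.49, against 11.06 to 11.62 on the other late arrays, and its mean over 6 neutrophil markers was 9.98, against 8.01 to 8.91. Cyp4f18, which inactivates leukotriene B4 in mouse neutrophils, was at 10.19 there, against 8.17 to 8.55 on the other late arrays. Their part in the low Gstm, Ugt2b34 and Ugt2b35 values of that array was not tested.

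**Figure D3:**
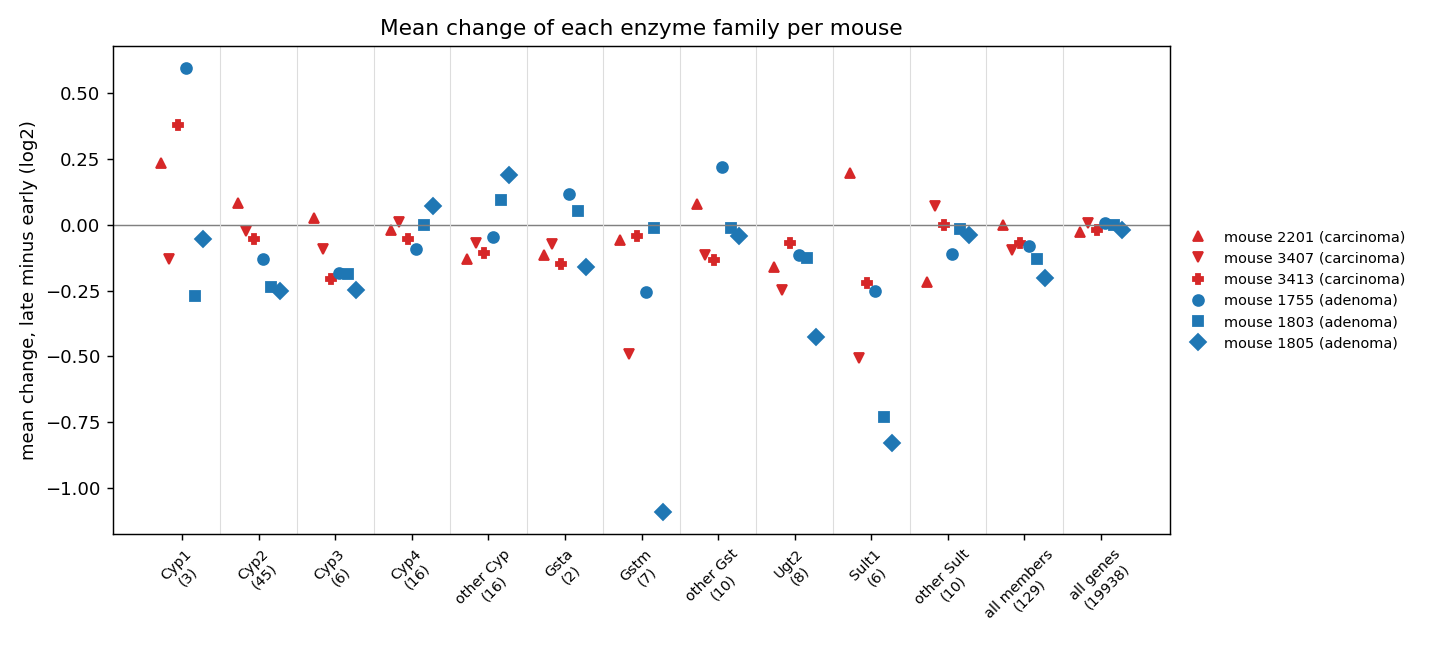
Mean change (late minus early, log2, y axis) over the genes of each enzyme family for each mouse, carcinoma tumors in red and adenoma tumors in blue, with the number of genes in brackets and all genes at the far right. The Gstm and Sult1 families reach the lowest values, −1.09 and −0.83 in mouse 1805, while the mean over all genes stays between −0.03 and 0.01.

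Of the remaining 10 glutathione transferases outside the mu and alpha classes, 8 had a mean above the 25th percentile. Gstp1, the pi class enzyme, lay between 11.58 and 12.20 on all arrays, and the alpha class enzyme Gsta4, which conjugates the lipid peroxidation product 4-hydroxynonenal, between 11.02 and 12.05. Gstk1, the mitochondrial and peroxisomal kappa class enzyme, had a range of 1.98 over the arrays and Gsto1 one of 1.39. Gsta3 varied by mouse rather than by group: it was at 11.01 late and 10.66 early in mouse 2201, and at 8.33 late and 8.73 early in mouse 3407. Among the P450s induced through AHR, Cyp1a1 was flat and dim, at 5.92 to 6.33, and Cyp1b1 had changes of 0.99, −0.29 and 1.11 in the carcinoma mice 2201, 3407 and 3413 and 1.43, −0.59 and −0.19 in the adenoma mice 1755, 1803 and 1805, so its direction was not shared.

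In the adenoma tumors 1 enzyme passed the threshold between late and early biopsies (0.775%, against 0.125% of all genes, 0.0903% lower and 0.0351% higher), and it fell. Cyp2d12 was at 5.19, 5.18 and 6.50 in late adenomas (mice 1755, 1803 and 1805), against 6.47, 6.94 and 8.15 in the early biopsies of those mice. Its pairs dropped by similar amounts, −1.28, −1.76 and −1.65, a change of −1.57 (SE 0.126; limma adjusted p = 0.0292). In carcinoma tumors it was at 5.30, 5.38 and 5.34 late, against 5.62, 5.46 and 5.19 early, so the late adenomas of mice 1755 and 1803 were at the level of the carcinoma tumors. The probe set is dim, and its mean lay below the 25th percentile of all genes.

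Markers of other cell types moved in the same adenoma pairs, although none passed the adjusted threshold. All 7 endothelial markers were higher late (median 1.42, all at an unadjusted p under 0.05), with list means of 10.17 to 10.47 late against 8.54 to 9.05 early. All 6 neutrophil markers were higher (median 2.0, all at that p), with means of 8.68 to 9.98 late against 6.74 to 7.50 early, and all 7 fibroblast markers were higher (median 0.98, 5 at that p), with means of 10.86 to 11.51 late against 9.35 to 10.52 early. Of the 12 surface colonocyte markers 9 were lower late (median −0.29, 4 at that p), with means of 8.42 to 10.55 late against 9.88 to 11.09 early. All 6 mast cell markers were lower (median −1.41, 2 at that p), as were 4 of 5 tumor stem cell and Wnt target genes (median −0.49, 3 at that p). All 6 smooth muscle markers (median 0.44, 0 at that p) and all 4 plasma cell markers (median 0.73, 1 at that p) were higher. The part of these shifts in the lower late levels of Cyp2d12 and of the other P450s below was not tested.

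The call of Cyp2d12 was not firm. Every adenoma pair spans both array groups, so for these changes the term for the array group rests on carcinoma mouse 2201. With a term for the array group its change was −1.21 and its adjusted p 0.782. Leaving out mouse 1755, 1803 or 1805 gave −1.71, −1.47 and −1.52 with adjusted p of 0.0972, 0.116 and 0.0870, and leaving out carcinoma mouse 3407 or 3413 gave adjusted p of 0.0704 and 0.0633. Without the pairing by mouse the adjusted p was 0.174. At an unadjusted p under 0.05 there were 31 enzymes in late adenomas (24.0%, against 18.0% of all genes), 23 lower and 8 higher (17.8% and 6.20%, against 10.7% and 7.38%).

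Further P450s were lower late in all 3 adenoma mice but did not pass the threshold. Cyp3a13 was at 8.40, 7.75 and 9.34 in late adenomas, against 9.29, 8.63 and 10.50 early, a change of −0.97 (SE 0.120; limma adjusted p = 0.0580). In carcinoma tumors it was at 8.14, 6.75 and 8.03 late, against 7.79, 6.94 and 7.78 early, a change of 0.14 (SE 0.120). The adenoma value passed when arrays were centred on their medians, at −1.02 with adjusted p = 0.0424, but had an adjusted p of 0.770 with a term for the array group (−1.28, SE 0.266) and of 0.515 without the pairing by mouse.

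Cyp4f14 was at 8.40, 7.39 and 9.04 in late adenomas, against 9.21, 7.79 and 9.41 early, and at 7.73, 7.10 and 7.31 in late carcinomas, against 7.34, 6.78 and 7.12 early. It was thus lower late in all 3 adenoma mice and higher late in all 3 carcinoma mice. The changes were −0.53 (SE 0.106, limma adjusted p = 0.101) and 0.30 (SE 0.106). Enzymes with that pattern numbered 3 (2.33%, against 1.19% of all genes), with Cyp4f13 and Gstz1, and the opposite pattern was seen in 2 (1.55%, against 1.71%), Cyp11b2 and Cyp4a12b. Cyp4a31 had changes of −0.62 (SE 0.0857; adjusted p = 0.0580) in adenoma tumors and 0.10 in carcinoma tumors, but was very dim, at 3.77 to 4.80. Its adenoma change had an adjusted p of 0.0492 without carcinoma mouse 2201 and of 0.0827 to 0.172 with another mouse left out, and with a term for the array group it was −0.31 (SE 0.155; adjusted p = 0.845).

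**Figure D4:**
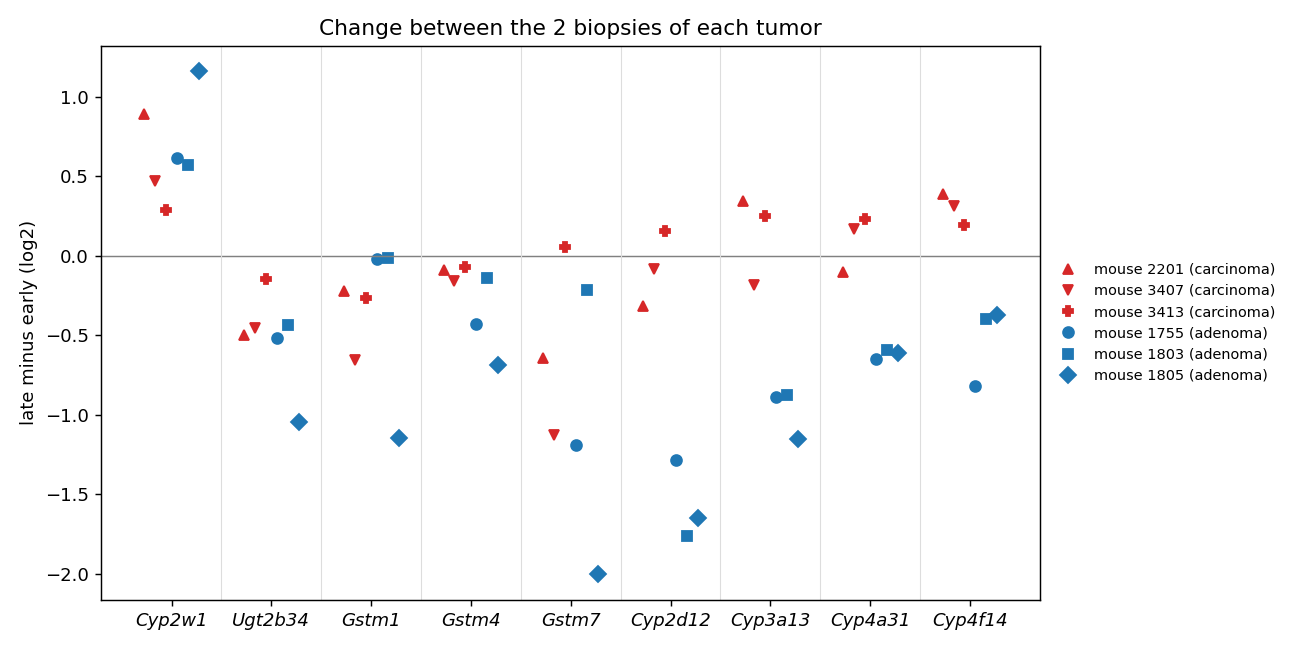
Change between the late and the early biopsy of each tumor (late minus early, log2, y axis) for 9 enzymes, 1 symbol per mouse, carcinoma tumors in red and adenoma tumors in blue. Cyp2w1 is above 0 and Ugt2b34 below 0 in all 6 mice, while for Cyp2d12, Cyp3a13, Cyp4a31 and Cyp4f14 every adenoma tumor lies below every carcinoma tumor.

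Fewer differences were seen in the carcinoma tumors, where only the pair of mouse 2201 spans both array groups. No gene passed the threshold in limma between their late and early biopsies (0.0%), and 7 enzymes were at an unadjusted p under 0.05 (5.43%, against 4.30% of all genes), 2 higher and 5 lower (1.55% and 3.88%, against 1.7% and 2.61%). The higher ones were Cyp2w1 and Cyp4f14. All 8 Ugt2 genes had a negative change, as did 60.2% of all genes, with a median of −0.16 beside −0.03 for all genes. Of these 8, 2 had a mean above the 25th percentile of all genes.

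The difference between the change in carcinoma tumors and the change in adenoma tumors was tested directly. Every adenoma pair spans both array groups, but of the carcinoma pairs only that of mouse 2201 does. This difference is therefore mixed with the array group. No gene passed after adjustment (0.0%), and 19 enzymes were at an unadjusted p under 0.05 (14.7%, against 7.04% of all genes), with 10 positive and 9 negative (7.75% and 6.98%, against 3.68% and 3.37%). The smallest p-values were those of Cyp2d12 at 1.48 (SE 0.178; unadjusted p = 9.19e-05, limma adjusted p = 0.456), Cyp3a13 at 1.11 (SE 0.170), Cyp4f14 at 0.83 (SE 0.150) and Cyp4a31 at 0.72 (SE 0.121; adjusted p = 0.561 for these 3). All of these enzymes started higher in the adenoma tumors, with early differences of −1.77, −1.97, −1.72 and −0.71 between carcinoma and adenoma tumors. The late change in adenoma tumors and the early difference share the early adenoma arrays, so they are not separate evidence.

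**Figure D5:**
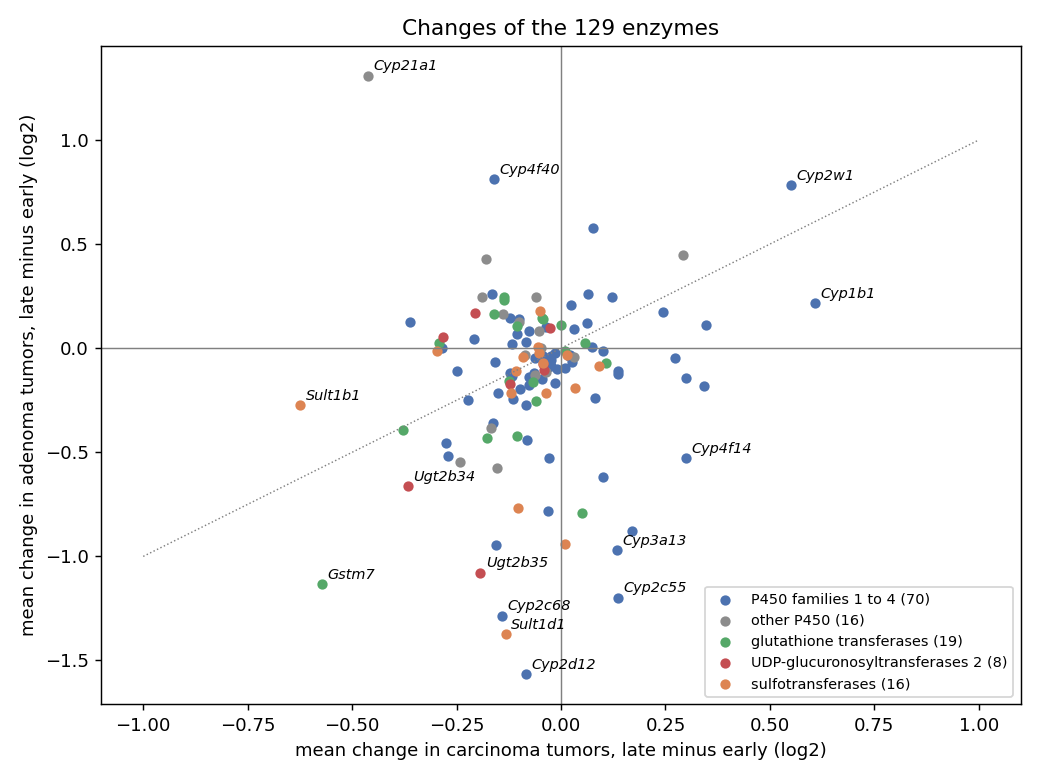
Mean change of each of the 129 enzymes in carcinoma tumors (x axis) against adenoma tumors (y axis), late minus early in log2 units, coloured by family, with equal changes on the dotted line. Cyp2d12 (−1.57), Sult1d1 (−1.37), Cyp2c68 (−1.28) and Cyp2c55 (−1.20) have the lowest adenoma changes with carcinoma changes between −0.14 and 0.14, and Cyp2w1 is positive on both axes. These small carcinoma changes are means of mice that moved in opposite directions, for Sult1d1 0.91, −0.64 and −0.67 in mice 2201, 3407 and 3413. The adenoma change of Cyp2c55 was largest in mouse 1755, at −2.45, against −0.33 and −0.81 in mice 1803 and 1805.

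Single mice set several of the widest changes. Cyp2f2, which activates naphthalene in the club cells of mouse lung, was at 10.06 in the early biopsy of mouse 1805, against 6.53 to 7.00 in the other early biopsies, and at 7.51 in its late biopsy, against 6.43 to 6.77. Sult1a1 and Sult1c2 were also highest in that early biopsy, at 9.41 and 9.74, which was the array with the highest surface colonocyte mean, 11.09. Cyp11a1, the cholesterol side-chain cleavage enzyme, was at 7.87 in the early biopsy of mouse 1755, against 6.09 to 6.95 in the others. The mean of 6 mast cell markers was 10.92 on that array, against 8.03 to 9.58 on the other early arrays.

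Of the sterol, steroid and retinoid P450s, Cyp27a1, the mitochondrial sterol 27-hydroxylase, was lower late in 5 of 6 mice, with a change of −0.37 (SE 0.129; limma adjusted p = 0.284), or −0.24 without mouse 1805. Cyp39a1, an oxysterol 7α-hydroxylase, had a change of −0.27 (SE 0.114), which was −0.16 without mouse 1805 and −0.12 (SE 0.197) with a term for the array group. Cyp26b1, which clears retinoic acid, was at 7.80, 8.10 and 7.72 in late carcinomas, against 8.06, 8.29 and 8.66 in late adenomas, and its change was −0.18 in carcinoma tumors and 0.43 in adenoma tumors (SE 0.129 each). None of these passed the adjusted threshold.

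Genes that act with these enzymes were followed as lists, and no gene of any list passed the adjusted threshold in any of the 6 comparisons (limma). Of all genes, 45.8% were lower in late carcinomas than in late adenomas, and 39.9% were lower in early carcinoma tumors. Of 12 measured receptors, factors and electron donors, 8 were lower and 4 higher in late carcinomas than in late adenomas, and the same counts held early. Nr1i2, which encodes PXR, had the smallest late p, with a difference of −1.22 (unadjusted p = 0.00608, adjusted p = 0.401), and was at −0.90 early. Of 19 other phase I enzymes 12 were lower late and 16 early in carcinoma tumors, with the monoamine oxidase Maoa at −0.93 and −1.68 and the carboxylesterase Ces2e at −1.64 and −2.18. Between the late and early biopsies of all tumors 10 of the 19 were higher late and 9 lower, while 57.9% of all genes were lower. The smallest p-values were those of rises, of Ces1g at 1.76 (limma unadjusted p = 0.0021, adjusted p = 0.210), Fmo1 at 0.78 and Nqo1 at 0.50. Of 15 other phase II and cofactor genes 14 were lower late in carcinomas and 10 early, with the microsomal transferase Mgst3 at −1.11 late.

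Of 9 NRF2 target genes 8 were higher late in adenoma tumors and 8 lower late in carcinoma tumors. Of all genes, 52.8% were lower late in adenoma tumors and 60.2% in carcinoma tumors. The malic enzyme Me1 was at 0.84 in adenoma tumors (limma unadjusted p = 0.00342, adjusted p = 0.114). Nqo1 was higher late in both, at 0.47 in adenoma tumors and 0.53 in carcinoma tumors, where it had the smallest p of the list (limma unadjusted p = 0.0561, adjusted p = 0.952). Among 9 transporters, Abcc2, which exports glutathione and glucuronide conjugates, had the smallest p with time, with a change of −1.57 over all tumors (unadjusted p = 5.17e-05, adjusted p = 0.168), −1.28 in carcinoma tumors and −1.87 in adenoma tumors. Between pathologies 6 of the 9 transporters were lower and 3 higher in carcinoma tumors, late and early alike. Of all genes, 45.8% were lower late and 39.9% early. The smallest p at both times was that of Abcc4, which was higher in carcinoma tumors, at 0.44 late and 0.45 early (limma adjusted p = 0.401 and 0.298). Abcg2, an apical efflux pump for sulfate conjugates, was at −1.18 in late carcinomas relative to late adenomas and at −1.14 early.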

How the data were processed

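The authors deposited 1 table of log2 intensities, with 35557 probe sets on 12 arrays. Per the labels' protocols, biopsies were kept in lysis buffer or RNAlater, and RNA was extracted with a micro-column kit, labelled with biotin and hybridised to Affymetrix arrays. The summarisation and normalisation were not given in the sources used here, so the deposited log2 scale was read from the range of the values.

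Probe sets were named from the platform annotation: 21789 carried 1 symbol, 1621 several and 12147 none. Of these, 21698 matched RefSeq by gene ID, with 0 symbols changed. The probe set with the highest mean stood for a gene, which gave 19938 genes, all of them tested. The enzymes and the gene lists were chosen with earlier results of these data known.

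All tests used limma 3.58.1 in R 4.3.3 on the log2 values of all genes, 2-sided, with Benjamini-Hochberg adjustment over all genes and a threshold of 0.05. Changes with time were fitted with mouse as a block, since late and early biopsies come from the same tumor. Paired arrays had correlations of 0.11 to 0.53 of their deviations from the mean of their time point. The lowest was that of mouse 2201, whose early array correlated best with the late array of mouse 3407, and the other 5 early arrays correlated best with their own late array. Differences by pathology used the same 12 arrays, with a random effect for mouse (correlation 0.286). Replicates are separate mice. The fits were tested on simulated data.

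Members were named by a rule: those past the threshold, filled to 6 a direction by unadjusted p in each comparison, the 2 brightest of each family, the 8 with the widest range, those with 1 array far from the others, and a fixed list of well-known enzymes. The alternatives tried were quantile normalization, median centring, leaving out dim genes, the mean of probe sets, a trended robust prior, a term for the array group, no block for mouse, each mouse left out and, added after seeing the data, the arrays of 1 time point alone.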

Additional observations from a re-analysis of the deposited data

Results flagged for a closer look

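For 45 described enzymes, the 6 late levels, the 6 early levels and the 6 changes were checked for 1 value far from the rest with Dixon's test at 95%, and 17 of 135 such groups had one. Some of these enzymes were described because of such a value, so this count is not set against chance. Over all 129 enzymes 34 of 387 groups had one. These groups share arrays and pool both pathologies, and genes outside the set were not checked. That count is therefore not set against chance either.

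Mouse 1805 gave 12 of the 17. Its late biopsy was the highest for Cyp4f18 at 10.19, Cyp2f2 at 7.51, Cyp2c68 at 7.20 and Cyp2d12 at 6.50, and the lowest for Gstz1 at 8.62 and Ugt2b35 at 6.29. Its early biopsy was the highest for Cyp2f2 at 10.06, Sult1c2 at 9.74 and Sult1a1 at 9.41. Its change was the lowest for Cyp2f2 at −2.55 and Cyp39a1 at −0.87, and the highest for Gsto1 at 0.41.

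Mouse 1755 had the lowest change of Cyp11a1, −1.73, and the lowest early level of Cyp39a1, 9.20. Mouse 2201 had the highest late level and the highest change of Cyp2e1, the ethanol-inducible P450, at 6.71 and 0.91. Mouse 1803 had the highest early level of Cyp2b10, a target of the receptor CAR, at 11.22.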

How the results depend on the processing

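Of 48 tested values named for single enzymes, none changed sign in 634 alternative values, and quantile normalization, the mean of probe sets and the trended robust prior moved none across the threshold. Between late and early biopsies of adenoma tumors, 25 genes and 1 enzyme passed. The counts were 42 and 2 with median centring, 13 and 0 without dim genes (Cyp2d12 is dim), 0 and 0 with the array group term, and 2 and 0 with no replicate block. Leaving out single mice gave 0 to 78 genes and 0 to 2 enzymes, with 78 without mouse 2201. In the other comparisons no gene passed. Leaving out single mice gave 0 to 2 genes over all tumors, 0 to 1 in carcinoma tumors, 0 to 395 genes and 0 to 7 enzymes between pathologies late, and 0 to 67 genes and 0 to 5 enzymes early, the highest counts being those without mouse 1803. In the change of adenoma tumors, Cyp2d12 ranged from −1.71 to −1.47 over the mice left out. The cause of these shifts was not tested. The pairing by mouse changed no call other than those given here. Array medians differed by 0.03 to 0.07 between groups. With 3 tumors a pathology, and dim probe sets for 70 of 129 enzymes, small changes were not detectable.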
